A study of Mus musculus with 2 samples.

Results

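Slc7a11 encodes xCT, the light chain of the cystine/glutamate antiporter, and lies on mouse chromosome 3. Its locus is described here from the peaks of a chromatin immunoprecipitation (ChIP-seq) experiment. The antibody was directed against Nr4a2, a nuclear receptor also known as Nurr1. The cells were BV2, an immortalised mouse microglial line, and 1 ChIP library was sequenced beside 1 library of input DNA without immunoprecipitation. The labels name no genotype, treatment or time, while the library names in the file header carry the tag H2O2. Microglial identity could not be checked, since a peak list holds no expression values. The members are the authors' deposited peaks with a summit inside the RefSeq record of Slc7a11, or with Slc7a11 as the nearest coding gene by gene end. They number 7 of the 7680 peaks in the list. Another 25 peaks lay within 2 Mb to either side of the record, which gave a window of 32. The members were chosen by the position of the called peaks, with their values known, so those values are given as a description, without tests. With 1 library of each kind there are no replicates, and intervals cover counting error only.

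System xc- is a heterodimer at the cell surface in which xCT is the transporting chain and the heavy chain, encoded by Slc3a2, anchors it. It takes up cystine in exchange for glutamate, cystine is reduced to cysteine, and cysteine supply limits the synthesis of glutathione. Glutathione serves the peroxidase Gpx4, which removes lipid peroxides and holds back ferroptosis. In microglia the exchange is also a known route of glutamate release. Transcription of Slc7a11 is known to be raised by Nrf2 under oxidative stress and by Atf4 under amino acid shortage, and lowered by p53 and Bach1.

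The RefSeq record of Slc7a11 (gene ID 26570) spans 50364936 to 50499087 on chromosome 3 (mm10), a length of 134152 bp. The gene lies on the minus strand. RefSeq's promoter table places its start site at 50443613, and the record runs on for another 55.5 kb upstream of that site. The table used here holds no exons, so introns and untranslated regions could not be told apart. The 250 bases upstream of the start site are shown because the distances below are counted from the start site and because regulators of the gene are known to act through its promoter. They are RefSeq sequence on GRCm38.p6 (mm10), from 50443614 to 50443863 and read 5′ to 3′ on the minus strand. Capitals mark matches to TGATGNAA, the core of the C/EBP-ATF composite element that Atf4 binds.

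Slc7a11 upstream: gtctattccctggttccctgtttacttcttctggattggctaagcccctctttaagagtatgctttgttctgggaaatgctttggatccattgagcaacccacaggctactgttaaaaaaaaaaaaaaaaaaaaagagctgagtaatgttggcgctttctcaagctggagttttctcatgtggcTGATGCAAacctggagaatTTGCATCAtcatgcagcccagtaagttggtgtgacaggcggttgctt

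The stretch held 2 matches to this core, 1 on each strand, at 66 to 59 and at 47 to 40 bases upstream of the start site. The core was present in 3.45% of the 32851 RefSeq promoter windows of the same length, searched on both strands. AAAGGTCA, the element to which Nr4a receptors bind as monomers, had 0 matches here and was present in 1.34% of the windows. TGACNNNGC, a core of the antioxidant response element bound by Nrf2, also had 0 matches and was present in 10.2%. These are matches of letters only. No deposited peak overlapped this stretch, and the closest summit lay 5.75 kb upstream of the start site.

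The peak inside the Slc7a11 record was the lowest of the 7 peaks. It ran from 50449327 to 50449490, had the smallest width the caller allows (164 bp), and reached 11 ChIP tags over its summit at 50449363. Its fold enrichment, the ratio of pileup to local background with a pseudocount of 1 on each, was 3.14. Its −log10 q was 1.08, below the 1.30 that corresponds to a q of 0.05. The summit lay upstream of the start site but inside the longer record, 49.7 kb from the record's nearer end. It was therefore no gene-end peak, and whether it is intragenic depends on which start is taken.

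The other 6 peaks lay between genes, 4 on the 3′ side of Slc7a11 and 2 on the upstream side. The peak closest to the record on the 3′ side ran from 50269280 to 50269446, 95.6 kb from the record, and was the tallest of the 7 with 22 tags. Its fold was 4.17 and its −log10 q 3.39. Further out on that side, the peak from 50212881 to 50213066 had 14 tags, a fold of only 2.72 and a −log10 q of 0.876. These neighbours, 56.4 kb apart, each had a local background of 4.52 tags, which stands for 5 input tags at the summit of each. At equal background their folds differed only because their heights did.

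Farther on the 3′ side, the peak from 50181713 to 50181892 had 16 tags, a fold of 4.61 and a −log10 q of 2.87. The outermost, from 50072045 to 50072278, had 13 tags, a fold of 3.86 and a −log10 q of 1.76. It was also the widest of the 7, at 234 bp. These 2 peaks lay 183 kb and 293 kb from the record, over backgrounds of 2.68 and 2.63 tags.

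On the upstream side there was a pair of peaks 26.8 kb apart. The peak from 50692684 to 50692890 had 18 tags, a fold of 4.04 and a −log10 q of 2.63, at 194 kb from the record. The peak from 50719415 to 50719602 had 20 tags and the highest fold and significance of the 7, at 4.94 and a −log10 q of 4.18. It lay 220.4 kb from the record. Of the 7 peaks, 5 had a q of at most 0.05 and 4 a q of at most 0.01, and all of these lay outside the record.

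Spacing was uneven. Gaps between the 7 summits ranged from 26.8 kb to 243 kb with a median of 83.0 kb, and the 2 longest, 180.0 kb and 243 kb, flanked the peak inside the record. The stretch over which an end of Slc7a11 is the nearest coding gene end was 801 kb long, since the neighbouring coding genes are far away, Pcdh18 at 608 kb and Noct at 725 kb. Over this stretch the density was 8.74 peaks per Mb (exact Poisson 95% interval 3.52 to 18.0). At its 3′ limit the outermost member lay 293 kb from Slc7a11 and 315 kb from Pcdh18, while the next peak, with 13 tags and a fold of 3.28, lay 272 kb from Pcdh18. At the upstream limit the next peak beyond the members had 11 tags, a fold of 2.65 and was nearest to Noct, at 285 kb.

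**Figure D1:**
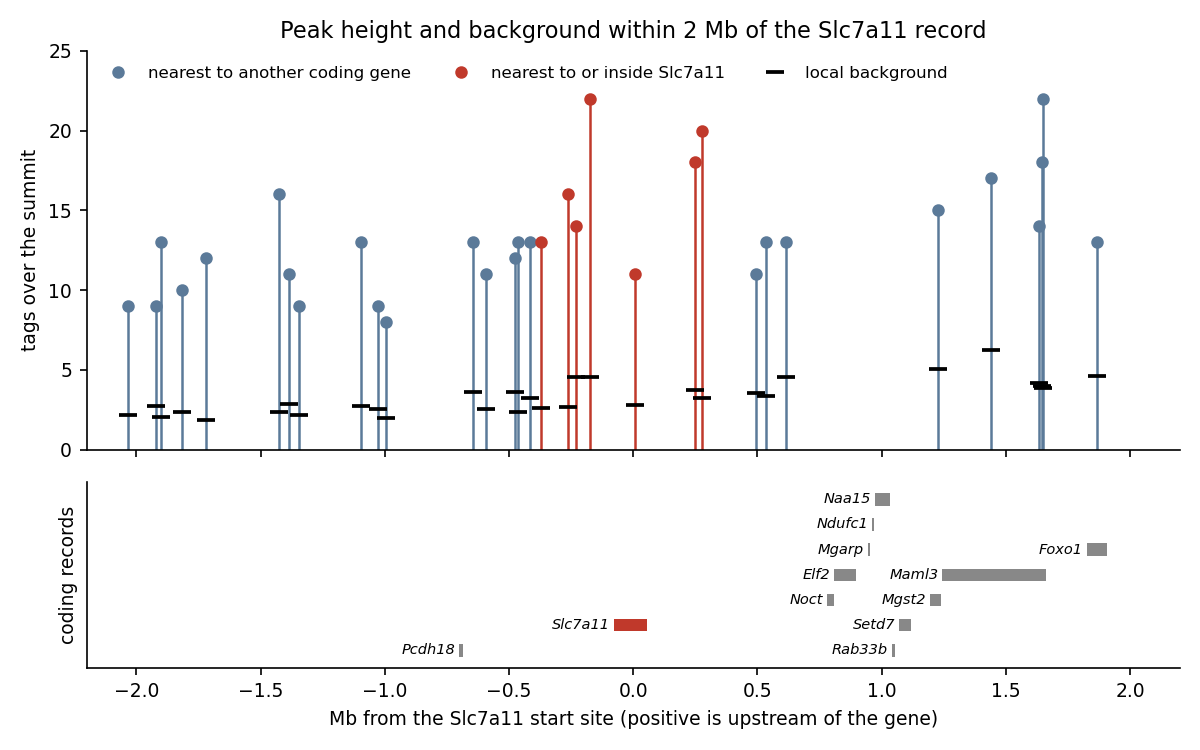
Summit pileup (lollipops, tags) and local background (black bars, tags) of the 32 peaks within 2 Mb of the Slc7a11 record, against distance in Mb from the start site, with coding gene records below. The 7 Slc7a11 peaks (red) have 11 to 22 tags, and backgrounds are higher on the upstream side, where they reach 6.23 tags.

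Both heights and backgrounds at Slc7a11 were above those usual in the list. The median pileup was 16 tags in the 7 peaks, 13 in the window and 10 in all peaks. A pileup of 13 tags or more was reached by 6 of the 7, by 20 of the 32 in the window (62.5%) and by 10.6% of all peaks. Local backgrounds at the 7 ranged from 2.63 to 4.52 tags with a median of 3.25, against a genome-wide value of 1.79 tags. Those backgrounds amount to 1.47 to 2.53 times the genome-wide value. None of the 32 window peaks had the genome-wide background, which applied to 49.3% of all peaks.

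The caller takes the background as the largest of the genome-wide level and the scaled input over a fragment, 1 kb or 10 kb, so a raised value counts input tags. The backgrounds were recovered from the deposited folds, and the −log10 p of all 7680 peaks was reproduced from pileup and background to within 0.001. At each of the 32 window peaks the background corresponded to a whole number of input tags. Around the outermost 3′ peaks the input held 177 and 181 tags in 10 kb, and around the tallest upstream peak 219, where the genome-wide mean is 120.4 tags. The peak inside the record stood over 190 and the other upstream peak over 250 tags in 10 kb, or the same rate in 1 kb. For a single peak with a multiple of 10 the values do not separate these scales. In the list, 703 peaks had such multiples and 1231 had other 10 kb counts. That is more multiples than 10 kb counts alone would give, so 1 kb counts are common among them. The remaining 2, at 95.6 kb and 152 kb on the 3′ side, stood over 5 input tags at the summit itself. The input was thus above its genome-wide mean at each of the 7 peaks, and the part of this in their heights was not tested.

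Fold is defined from pileup and background, so at a given height a raised background lowers it by arithmetic. The values below give the size of this lowering and are no separate observation. The peak inside the record, with 11 tags, had a fold of 3.14 and a −log10 q of 1.08, whereas the 595 placed peaks of 11 tags at the genome-wide background had a median fold of 4.31 and a median −log10 q of 1.76. For the peak of 14 tags, the fold of 2.72 stood against a median of 5.38 in 44 such peaks. No peak at the genome-wide background had 18, 20 or 22 tags, so the 3 tallest have no counterpart there. Within the window, the 9 peaks of 13 tags had a median fold of 3.28, against 5.02 in 125 peaks of that height at the genome-wide background.

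Of the 7, 4 had heights that few peaks of like background outside the dense block reached, and 3 did not stand out. These values were known when the members were chosen, so the shares are a description and no test. Of the placed peaks outside the dense block whose background lay within 0.25 tags, none of 20 reached 22 tags, 1 of 18 reached 20 tags, 3 of 67 reached 18 tags and 14 of 700 (2%) reached 16 tags. In contrast, 333 of 656 (50.8%) had at least the 11 tags of the peak inside the record. The other 2 members had 14 and 13 tags, heights reached by 8 of 20 and by 139 of 727 (19.1%). The peak inside the record was 2 tags above the smallest pileup that passes the authors' p-value cutoff at its background, which is 9, and the tallest peak was 10 tags above the smallest passing there, which is 12. At the genome-wide background a pileup of 7 is enough.

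**Figure D2:**
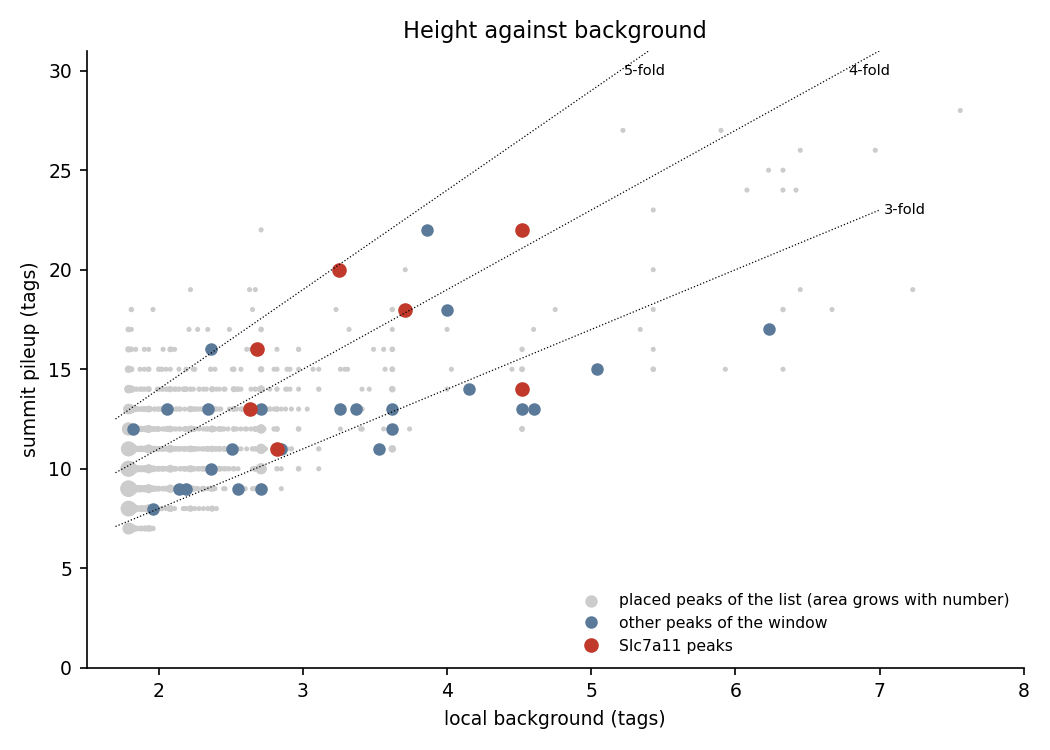
Summit pileup against local background, both in tags, for placed peaks of the list up to 30 tags and a background of 8 (grey), the other 25 peaks of the window (blue) and the 7 Slc7a11 peaks (red), with dotted lines of equal fold enrichment. The red points range from 2.72-fold to 4.94-fold at backgrounds of 2.63 to 4.52 tags.

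Widths at Slc7a11 were narrow for the window. They ranged from 164 to 234 bp with a median of 186 bp, against a median of 229 bp in the other 25 window peaks and 190 bp in all peaks. The widest peak of the window was 500 bp, inside Maml3. By fold the order was the other way round, with a median of 4.04 in the 7, 3.13 in the other 25 and 3.59 in all peaks. A q of at most 0.05 was reached by 5 of the 7, by 8 of the other 25 and by 50.6% of all peaks.

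The 32 window peaks amounted to 7.74 per Mb (exact Poisson 95% interval 5.29 to 10.9). The 2 Mb on the 3′ side of the record held 20 of them and the 2 Mb on the upstream side 11. Backgrounds went the opposite way, from 1.82 to 4.52 tags with a median of 2.59 on the 3′ side and from 3.25 to 6.23 tags on the upstream side. The intervals of the densities, 6.11 to 15.4 and 2.75 to 9.84 per Mb, overlap. Pileups of 13 tags or more were found in 10 of the 20 and in 10 of the 11. At these backgrounds the smallest pileup that passes the p-value cutoff was 7 to 12 tags on the 3′ side and 10 to 15 upstream. Low peaks could thus be called less often upstream, and the 2 counts do not compare heights apart from this limit.

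Of the 12 coding genes in the window, 4 had a peak inside and none had one within 1000 bp of an end, where the shares over all coding genes were 11.6% and 2.36%. Pcdh18, a protocadherin gene that flanks Slc7a11 on the 3′ side, was the nearest coding gene of 16 window peaks, the closest at 42.3 kb, and had none inside its 14.1 kb. Noct, which encodes the circadian phosphatase nocturnin and flanks it on the upstream side, was nearest to 3 peaks, the closest at 164 kb. Mgst2, a microsomal glutathione S-transferase gene, had 1 peak inside, with 15 tags, a fold of 2.65 and a −log10 q of 0.884. It lay over a background of 5.04 tags and had a q above 0.05, as had the peak inside Slc7a11.

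Maml3, which encodes a Notch coactivator and has the longest record of the window at 418 kb, held 4 peaks. Of these, the peak from 52093165 to 52093435 equalled the tallest Slc7a11 peak with 22 tags and had a fold of 4.74 and a −log10 q of 4.34. Another Maml3 peak, from 52090986 to 52091187, had 18 tags and a fold of 3.80, and the remaining 2 had folds of 2.91 and 2.49. The latter stood over the highest background of the window, 6.23 tags. Foxo1, a forkhead factor gene, had 1 peak inside, with 13 tags and a fold of 2.50.

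The longest stretch without a summit in the window, 610.1 kb, lay upstream of Slc7a11 between 51060477 and 51670580. It contained 7 of the 12 coding genes, Noct, Elf2, Mgarp, Ndufc1, Naa15, Rab33b and Setd7. Backgrounds at the peaks that bound it were among the highest of the window, 4.52 and 5.04 tags, at which the smallest passing pileups are 12 and 13 tags. In the window as a whole, 7 summits lay inside coding records, 2 inside noncoding records only (Gm20557 and Gm29230) and 23 inside no record other than pseudogenes.

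Slc7a11 lay in a dense block of peaks on chromosome 3, near its middle under the main rule and near its upstream end under stricter ones. Joining summits no more than 1 Mb apart gave a block of 148 peaks from 42776476 to 57534638, with 8.87 Mb free of summits before it and 7.21 Mb after it. The block spans 14.8 Mb at 10.0 peaks per Mb (exact Poisson 95% interval 8.48 to 11.8), and the start site of Slc7a11 is 7.67 Mb from its first and 7.09 Mb from its last summit. The 7 Slc7a11 peaks are part of the 148. Their density over 801 kb was 8.74 per Mb (3.52 to 18.0), an interval too wide for a fine comparison with the block. The block is bounded by its own first and last summits, which its interval does not take into account.

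Peak number and background did not run in parallel along the block. In bins of 1 Mb counted from the start site, the most peaks, 21, were found from 2 to 3 Mb on the 3′ side, where the median background was 2.61 tags. The 1 Mb bins on either side of the start site held 10 peaks on the 3′ side and 6 upstream, with median backgrounds of 2.97 and 3.45 tags. The highest median background, 4.38 tags or 2.45 times the genome-wide value, was found from 1 to 2 Mb upstream, in the bin with Mgst2, Maml3 and Foxo1 and with 6 peaks. It was lower on both sides, down to 1.79 tags at 6 to 7 Mb on either side. Median pileups went from 8 tags in the bin 6 to 7 Mb on the 3′ side to 16 in that bin of highest background. The median fold in the latter bin was the lowest of the block, 2.78. The smallest passing pileup also rises with the background, and its part in these medians was not tested. The background medians also rest on different input scales. All 6 peaks from 1 to 2 Mb upstream had input counts that could be of 10 kb or of 1 kb. Bins on either side of the start site mixed such counts with clear 10 kb counts and counts over a fragment.

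**Figure D3:**
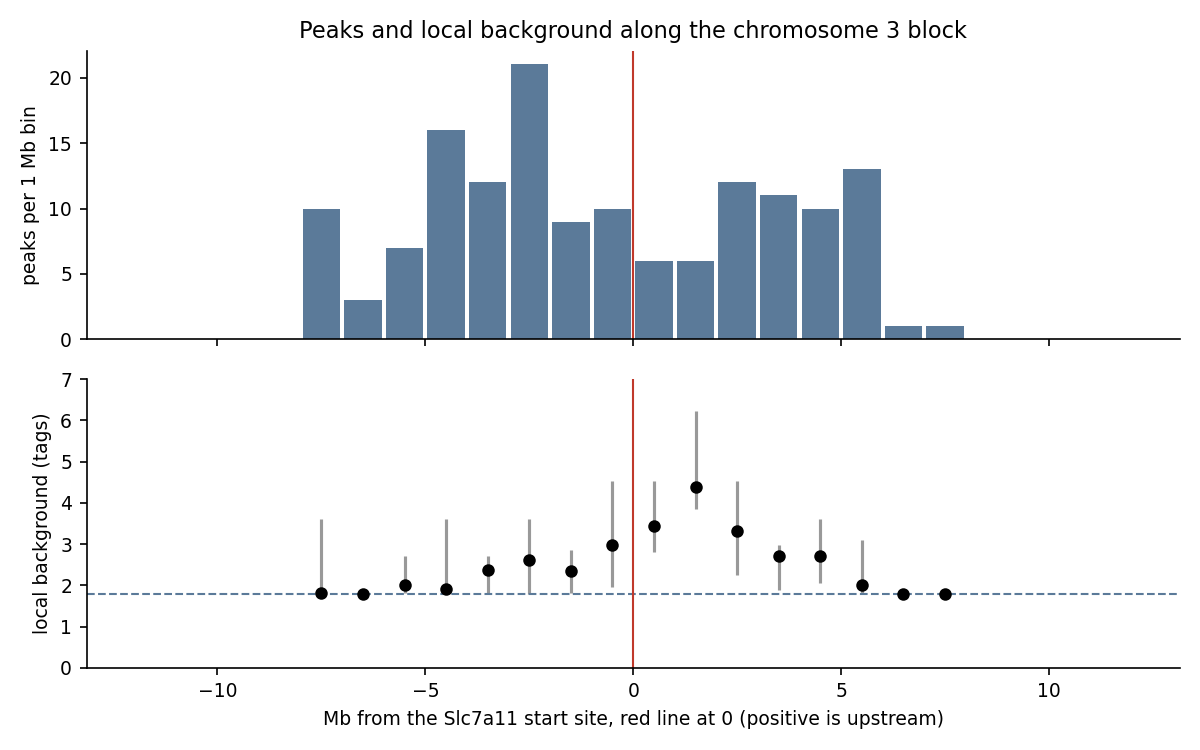
Peaks per 1 Mb bin (top, bars) and the median local background with its range from lowest to highest peak (bottom, points and grey lines, tags), against distance in Mb from the Slc7a11 start site (red line). The background is highest from 1 to 2 Mb upstream, at a median of 4.38 tags, where the bin holds 6 peaks, and the dashed line marks the genome-wide 1.79 tags.

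The other long run of peaks on chromosome 3, from 71830720 to 106201403, had 299 peaks and a like density of 8.70 per Mb (7.74 to 9.74). Its backgrounds were lower, with a median of 1.93 tags against 2.54 in the block around Slc7a11. The genome-wide background applied to 28.8% of its peaks and to 10.1% of those in the block. Over the placed chromosomes, 645 tiles of the window's length, 4.13 Mb, held a median of 9 peaks, and 37 tiles (5.74%) held 32 or more. Among the 304 tiles with at least 10 peaks, 3 had a median background as high as the window's 3.05 tags, on chromosomes 3, 5 and 8, and the first of these overlaps the window.

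A peak inside a coding gene record was found for 2542 of 21883 coding genes (11.6%), and for 33.5% of the 1202 coding genes with records of 100 to 170 kb, the length class of Slc7a11. With a q of at most 0.05 it was 6.75% of all coding genes, and Slc7a11 was not among them. As nearest coding gene of at least 1 peak, Slc7a11 was 1 of 4601 genes (21.0%). At least 7 nearest peaks were found for 74 genes (0.338%). Of the 513 genes with a territory of 600 to 1000 kb like that of Slc7a11, 60.6% were nearest to a peak, with a median of 1 peak and a maximum of 13, and 16 had 7 or more. Both shares were thus higher among long genes and genes with wide territories than over all coding genes.

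The other genes of cystine uptake, glutathione and their control were examined in 7 lists with 64 members. Of these, 7 had a peak inside (10.9%, against 11.6% of coding genes), 1 had a gene-end peak (against 2.36%) and 12 had a peak inside, at an end or nearest to them (18.8%, against 22.2%). These shares are near those of coding genes in general. The median distance from a gene end to the closest summit was 103 kb in the lists and 100.4 kb over all coding genes. When q was limited to 0.05, 6 of the 64 had such a peak, against 13.5% of coding genes.

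Among the transporters, Slc3a2, which encodes the heavy chain of system xc-, had no peak inside, at an end or nearest to it. Its closest summit was at 47.0 kb. Of the glutamate and neutral amino acid carriers of the SLC1 family, 3 of 5 had a peak inside, against 11.6% of coding genes. So few genes allow no comparison of shares. With q limited to 0.05, 2 of the 6 transport genes had a peak inside, at an end or nearest, against 13.5%. Slc1a4, a neutral amino acid carrier gene, had a peak of 8 tags and 3.20-fold inside, with a −log10 q of 0.760. A second peak of 15 tags and 5.52-fold, with a −log10 q of 3.75, lay 5.53 kb from the gene's end. Slc1a1 and Slc1a3, both encoding glutamate transporters, had peaks of 3.92-fold and 3.23-fold inside, with −log10 q of 1.39 and 0.760. The remaining pair of that family, Slc1a2 and Slc1a5, had their closest summits at 181 kb and 165 kb.

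In the SLC7 family, to which xCT belongs, 2 of the 14 other members had a peak inside or nearest to them. This was 14.3%, against 22.2% of coding genes. Slc7a1, a cationic amino acid transporter gene, had one inside with 11 tags, as Slc7a11 has, but at 4.27-fold over a background of 1.81 tags. The −log10 q of that peak was 1.76. Slc7a4 was nearest to a peak of 3.23-fold at 16.5 kb, with a −log10 q of 1.08. A closer summit, at 2.78 kb, was nearer to another gene. The closest summits to the next 3, Slc7a8, Slc7a5 and Slc7a6, were at 21.8, 42.7 and 77.9 kb, each nearer to another gene. No other family member was nearest to more than 1 peak, against 7 for Slc7a11. Such counts depend on territory, which is 801 kb for Slc7a11, and the territories of the other members were not compared.

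None of the 10 genes of glutathione synthesis and turnover and none of the 4 of cysteine synthesis had a peak inside, at an end or nearest. The share over all coding genes was 22.2%. The closest summits were 5.40 kb from Gss, the glutathione synthetase gene, 19.6 kb from Ggt7 and 93.5 kb from Gclm, which encodes the modifier subunit of the rate-limiting ligase. For Gclc, its catalytic subunit, it was 125 kb. In cysteine synthesis they were at 5.68 kb from Cbs, 22.7 kb from Mat2a and 36.8 kb from Ahcy. Of the 5 thioredoxin system genes, 1 had such a peak (20%, against 22.2% of coding genes). This was Txnrd2, which encodes the mitochondrial thioredoxin reductase, with a peak of 4.67-fold inside and a −log10 q of 2.18. The closest summits to Srxn1, Prdx1 and Txn1 were at 127, 239.7 and 429.7 kb.

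Of the 12 genes of lipid peroxide defence and iron, 3 had a peak inside or nearest to them (25%, against 22.2% of coding genes). Aifm2, which encodes the ferroptosis suppressor FSP1, had one of 8 tags and 3.23-fold inside, at a −log10 q of 0.760. Fth1, the ferritin heavy chain gene, was nearest to 2 peaks, of 3.92-fold at 21.4 kb and 3.23-fold at 16.1 kb. Their −log10 q values were 1.39 and 1.08. Gch1, whose product starts tetrahydrobiopterin synthesis, was nearest to 1 peak of 3.23-fold at 19.8 kb, with a −log10 q of 0.760. Among the others the closest summits were to Tfrc at 15.8 kb, Dhodh at 58.1 kb and Hmox1 at 62.1 kb, while Gpx4 was at 109.8 kb.

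Of the 13 regulators of Slc7a11, 3 had a peak inside, at an end or nearest to them (23.1%, against 22.2% of coding genes). Nfe2l2, which encodes Nrf2, had the only gene-end peak of all 7 lists, 0.624 kb from the gene. That peak had 9 tags, a fold of 3.59 and a −log10 q of 1.08. Bach1, the repressor counterpart of Nrf2, had a peak of 8 tags and 3.23-fold inside, 3.68 kb from an end. The −log10 q of the Bach1 peak was 0.760. Eif2ak3, which encodes the kinase PERK upstream of Atf4, was nearest to a peak of 4.31-fold at 23.8 kb. Its −log10 q was 1.76, and of these 3 genes only Eif2ak3 had a peak with a q of at most 0.05. Atf4 itself was 47.1 kb from the closest summit, Atf3 12.1 kb and Eif2ak4 59.8 kb. The 3 named regulators with peaks stood over a background of 1.79 tags, the genome-wide value, unlike each of the 7 peaks at Slc7a11.

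**Figure D4:**
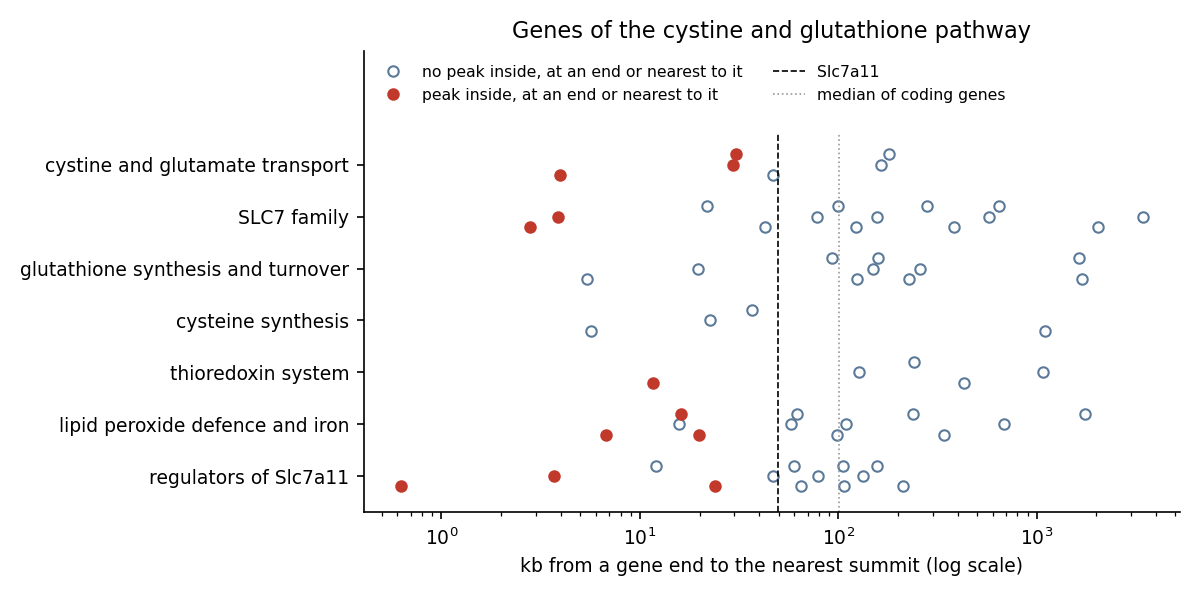
Distance in kb, on a log scale, from a gene end to the closest summit for the 64 pathway genes in 7 lists, with filled points for the 12 genes that had a peak inside, at an end or nearest to them. The dashed line is Slc7a11 at 49.7 kb and the dotted line the median of 100.4 kb over coding genes.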

How the data were processed

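ChIP-seq with an anti-Nr4a2 antibody and an input library from BV2 cells had been summarised by the authors as 1 peak list. Per the submitters' processing notes, Bowtie2, MACS2 2.2.6, ChIPseeker and mm10 were used. MACS 2.1.4 is the version in the peak file itself. Per the file headers, 20365794 ChIP and 22520884 input tags remained after duplicate removal, the p-value cutoff was 0.001, the fragment length 164 bp and the effective genome size 1.87e+09 bp. The deposited pileup is a coverage signal, the deposited fold enrichment a ratio, and the deposited −log10 p-value and q-value are the caller's. The q column was used as given, although its header announces no q. Widths and summits are given in bp in the deposited columns.

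From these, the background was computed as (pileup + 1) / fold − 1 and divided by the scaled weight of an input tag, with tolerances of 0.01 tags in 10 kb and 0.0002 tags over a fragment. This step and the nearest-gene search were checked on simulated data. The simulated backgrounds held no 1 kb counts and no 10 kb counts that were multiples of 10, so that class was not checked. Genes were RefSeq records on GRCm38.p6, with 21883 coding genes on chromosomes 1 to 19, X and Y. The 28 peaks elsewhere were not placed. Python 3.11.15, pandas 2.3.3 and scipy 1.17.1 were used. All 64 pathway symbols matched. Named were Slc7a11, window genes with peaks, the flanking genes, and per list every member with a peak inside or within 1000 bp of an end and up to 3 others closest to a summit. Others, such as Gclc, Gpx4, Slc7a4, Gch1, Fth1 and Eif2ak3, were named after their values were seen. The members and lists were chosen with earlier results of these data known. Alternatives were q limits, other nearest-gene rules, window lengths and gap limits.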

Additional observations from a re-analysis of the deposited data

How the results depend on the processing

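The number of Slc7a11 peaks was 7 as deposited, with peak intervals in place of summits and by nearest gene record, 5 at a q of at most 0.05 and 6 by the nearest RefSeq start site, an alternative chosen after seeing the data. It was 4 at a q of at most 0.01, and 3 when noncoding records could be nearest, since Gm40042 and Gm40043 then took 2 peaks each. The window's 32 peaks became 17 within 1 Mb, 115 within 5 Mb, 13 when q was limited to 0.05 and 10 when it was limited to 0.01. The block of 148 peaks was the same size with gaps of up to 2 Mb. It shrank to 81 with gaps of up to 0.5 Mb, ending at the 610.1 kb stretch upstream of Slc7a11. At a q of at most 0.05 it shrank to 45, ending at the outermost upstream Slc7a11 peak. In both cases Slc7a11 lay near the upstream end of the block and not near its middle. The median pileup of 16 tags became 17 without the peak of minimum width. The 12 pathway genes with a peak became 6 at a q of at most 0.05 and were 12 with a gene-end window of 3000 bp. No paired analysis was possible because there was 1 library of each kind. The window's peaks rest on 8 to 22 tags each, and counting error at such numbers limits how finely their heights can be compared.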
